A study of Mus musculus with 30 samples.

Results

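Gene expression in the normal mouse hippocampus was compared with that in the normal mouse cortex. The members were the 8 arrays whose sample titles name normal tissue and its region, 4 of hippocampus and 4 of cortex, out of 30 arrays in the study, and the comparison covered the 19936 genes that had a probe set naming a single symbol. The study set these normal samples beside mouse brain tumors that arose after injected Cre, whose expression the GFAP, SYN1 or NES promoter controlled. The labels record no construct for the normal samples and give no strain, genotype, age or animal for any sample, so what the normal and injected mice share is not known here. For a side comparison, 7 tumors that followed GFAP-Cre injection into the hippocampus and 4 that followed it into the cortex were used. GFAP is an astrocyte gene that is also active in neural stem cells, and which cells of each region the construct reached was not measured on these arrays. Values are log2 signal of Affymetrix Mouse Gene 1.0 ST arrays, on which a step of 1 is a 2-fold difference.

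Both regions belong to the dorsal telencephalon and hold excitatory pyramidal neurons, inhibitory interneurons and the same classes of glia. The hippocampus is a folded sheet of granule cells in the dentate gyrus and of pyramidal cells in fields CA1, CA2 and CA3, which form a largely unidirectional circuit, and granule cells continue to be made in adult mice. The cortex is stacked in layers, in which upper-layer neurons connect cortical areas with each other and deep-layer neurons project out of the cortex. Whole tissue was hybridised, so a lower signal from fewer cells of a type cannot be told apart from a lower signal of less RNA per cell.

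The arrays separated by their labelled region: the first principal component of the 8 arrays (52.4% of the variance) placed hippocampus arrays at 17.1 to 20.8 and cortex arrays at -21.4 to -18.3. Array medians lay between 7.18 and 7.20, and arrays of different regions correlated at 0.982 to 0.987, below the 0.991 to 0.996 of arrays of the same region. Several arrays nevertheless stood apart from the others of their region, by higher or by lower signal. Ttr, the thyroxine carrier made by the choroid plexus, read 12.79, 12.59, 9.68 and 8.96 in hippocampus 1 to 4 and 7.86, 8.10, 9.24 and 9.12 in cortex 1 to 4, so hippocampus 1 and 2 stood above all others. Drd2, a dopamine receptor of striatal neurons, read 7.73, 7.87, 10.60 and 9.87 in cortex 1 to 4 and 7.84 to 8.14 in hippocampus, so cortex 3 and 4 stood apart. In array 1 of both regions Xist was high (11.62 and 11.17) and Y-linked Uty low (4.57 and 4.99), the female pattern, whereas the other 6 arrays had Uty at 8.32 to 8.58. Among those 6 arrays Xist read 7.61 in hippocampus 3 and 5.49 to 6.47 in the rest. Hippocampus 2 lay more than 0.5 below the other hippocampus arrays in 105 genes, against 7 to 22 genes for the other hippocampus arrays. Hippocampus 3 lay more than 0.5 above the other hippocampus arrays in 143 genes, against 2 to 35 genes for the other hippocampus arrays. Of those 143 genes, 130 (90.9%) had a mean over the 22 tumor arrays more than 2-fold above the other 7 normal arrays, a property of 7.03% of all genes; Dynap read 10.15 there and 6.19 to 6.96 in hippocampus 1, 2 and 4. The mean of 13 striatal markers was 9.35 and 8.97 in cortex 3 and 4 and 7.82 to 8.06 elsewhere, and that of 12 choroid plexus markers 7.88 and 7.77 in hippocampus 1 and 2 and 6.70 to 7.13 elsewhere. These patterns were picked out after the values were seen, and their part in the results was not tested. For genes and lists that moved most without such arrays, the value without them is given beside the result.

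**Figure D1:**
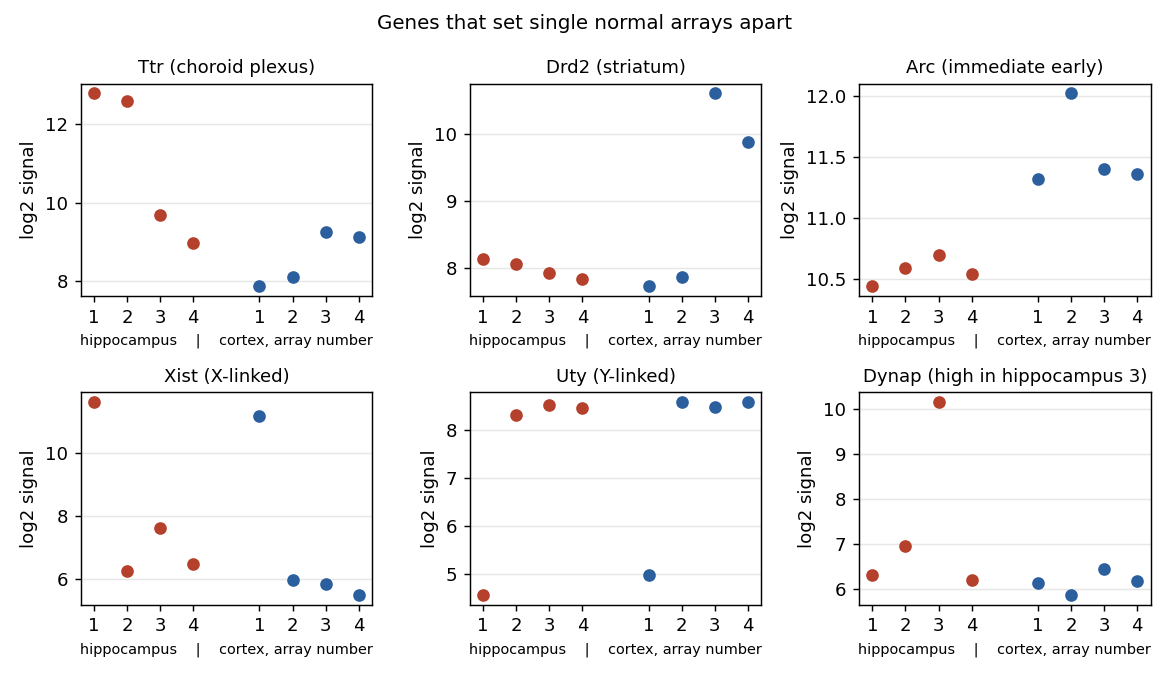
Log2 signal (vertical axis) of 6 genes on each normal array (horizontal axis; red, hippocampus 1 to 4; blue, cortex 1 to 4; 1 point per array). Ttr is high in hippocampus 1 and 2, Drd2 in cortex 3 and 4, Arc in cortex 2, Xist in array 1 of both regions, where Uty is low, and Dynap in hippocampus 3.

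Of the 19936 genes, 2768 (13.9%) differed between the regions by limma at a Benjamini-Hochberg adjusted p under 0.05. In hippocampus 981 genes (4.92%) were higher and 1787 (8.96%) lower. Most differences were small: the median among called genes was 0.46 for those higher and -0.43 for those lower, and 117 and 160 genes (1.39% of all genes together) reached 2-fold. Differences of 4-fold or more were seen in 19 genes higher in hippocampus and 8 lower. The 4 hippocampus arrays all lay above or all below the 4 cortex arrays in 3656 genes (18.3%). The labels tie no array to a particular mouse, so every p-value is set against array-to-array spread, part of which may be technical. Array 1 of each region had the female pattern and the other arrays did not. Whether those other arrays are of separate mice is not known. The balance of directions depended on scaling: quantile normalization gave 1571 higher and 1759 lower. Without cortex 3 and 4, the arrays with striatal signal, 575 genes (2.88%) were higher and 1194 (5.99%) lower, 8.87% in all. With a spread pooled over all 30 arrays, tumors included, 257 genes (1.29%) were called. Leaving out hippocampus 1 and 2 gave 832 genes higher (4.17%) and 1502 lower (7.53%), 11.7% in all. Leaving out hippocampus 3 gave 830 (4.16%) and 1565 (7.85%), and leaving out array 1 of both regions gave calls in 11.1% of genes. How background was treated is not given in the sources used here. Any background left in the signal compresses differences between dim genes, and levels of different genes are not compared.

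**Figure D2:**
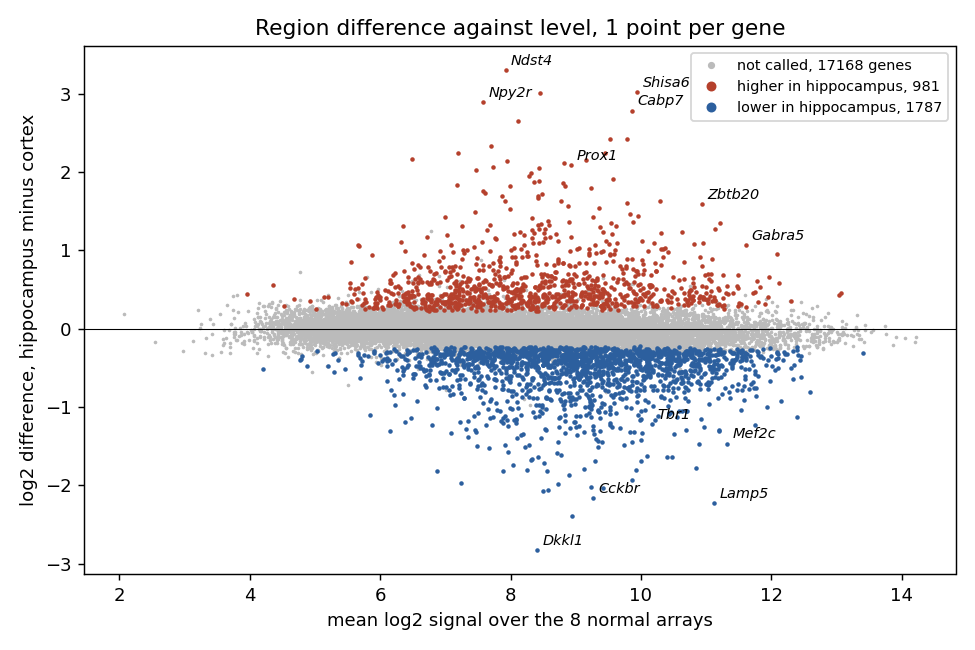
Log2 difference of hippocampus minus cortex (vertical axis) against the mean log2 signal of the 8 normal arrays (horizontal axis), 1 point per gene; red, 981 genes called higher; blue, 1787 called lower; grey, not called. Genes of 2-fold or more occur over most of the signal range on both sides.

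The 15 genes highest in hippocampus relative to cortex differed by 2.09 to 3.30. Ndst4, a heparan sulfate N-deacetylase and N-sulfotransferase, read 9.66, 9.30, 9.61 and 9.74 in hippocampus and 6.35, 6.53, 6.27 and 5.94 in cortex. That is a log2 difference of 3.30 ± 0.12 (standard error of the limma fit, 4 arrays each; 9.88-fold; limma adjusted p = 1.3e-09), the largest positive difference among the genes named by rule. Shisa6, an auxiliary protein of AMPA-type glutamate receptors, was higher by 3.02 ± 0.11 and read 11.12 to 11.66 against 8.31 to 8.50. Npy2r, a receptor for neuropeptide Y found on nerve terminals, read 9.24, 8.89, 9.05 and 8.91 in hippocampus and 6.10, 6.04, 6.05 and 6.33 in cortex, 7.41-fold apart. Syna, an envelope gene of retroviral origin, was higher by 3.01, and the calcium-binding protein Cabp7 by 2.78. The sodium-proton exchanger Slc9a4 (2.66), the protocadherin Pcdh20 (2.42), the choline transporter-like Slc44a5 (2.16), the copine Cpne7 (2.12) and Doc2b (2.25), a calcium sensor of vesicle release, were also among them. The remaining 5 were genes of the lists of hippocampal cells described next: Dsp, Spink8, Tdo2, Lct and Prox1. The rule that named them asked for regions without overlap.

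The 15 genes highest in cortex differed by -2.83 to -1.81 (hippocampus minus cortex). Dkkl1, a secreted protein related to the dickkopf Wnt antagonists, read 10.04, 9.85, 9.54 and 9.86 in cortex and 7.06, 7.08, 6.75 and 7.11 in hippocampus (log2 difference -2.83 ± 0.11; 7.1-fold lower in hippocampus; limma adjusted p = 1.95e-09). Myl4, a myosin light chain, read 10.63 in cortex 1 and 9.90 to 10.04 in cortex 2 to 4, all above the 7.67 to 7.85 of hippocampus. Lamp5, a lysosome-associated membrane protein of neurons, had a mean of 12.23 ± 0.18 in cortex (SD, n = 4) and read 9.83 to 10.11 in hippocampus. Cckbr, the brain receptor for cholecystokinin, was 4.47-fold lower in hippocampus, at 8.07 to 8.36 against 10.14 to 10.62. Scn4b, a sodium channel beta subunit that striatal neurons also express, read 9.37 and 9.17 in cortex 1 and 2 and 10.13 and 9.74 in cortex 3 and 4, so the cortex arrays with striatal signal were the higher of the 4. All 4 cortex arrays lay above the 7.44 to 7.67 of hippocampus. The others were the ephrin Efna5 (-1.98), the cerebellin Cbln2 (-1.81), the potassium channel Kcnh5 (-1.94), the transcription factor Foxp2 (-1.81), the heparan sulfate 3-O-sulfotransferase Hs3st2 (-2.03), the actin nucleator Cobl (-2.02), the Ras exchange factor Rasgef1b (-2.07), the copine Cpne5 (-1.87), the relaxin-family receptor Rxfp2 (-1.82) and Exph5 (-1.97). All 30 genes of both directions stayed past the threshold without cortex 3 and 4, without hippocampus 1 and 2, without array 1 of both regions, and without hippocampus 3. With the spread pooled over all 30 arrays, Lamp5, Scn4b, Kcnh5 and Cpne5 did not pass.

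**Figure D3:**
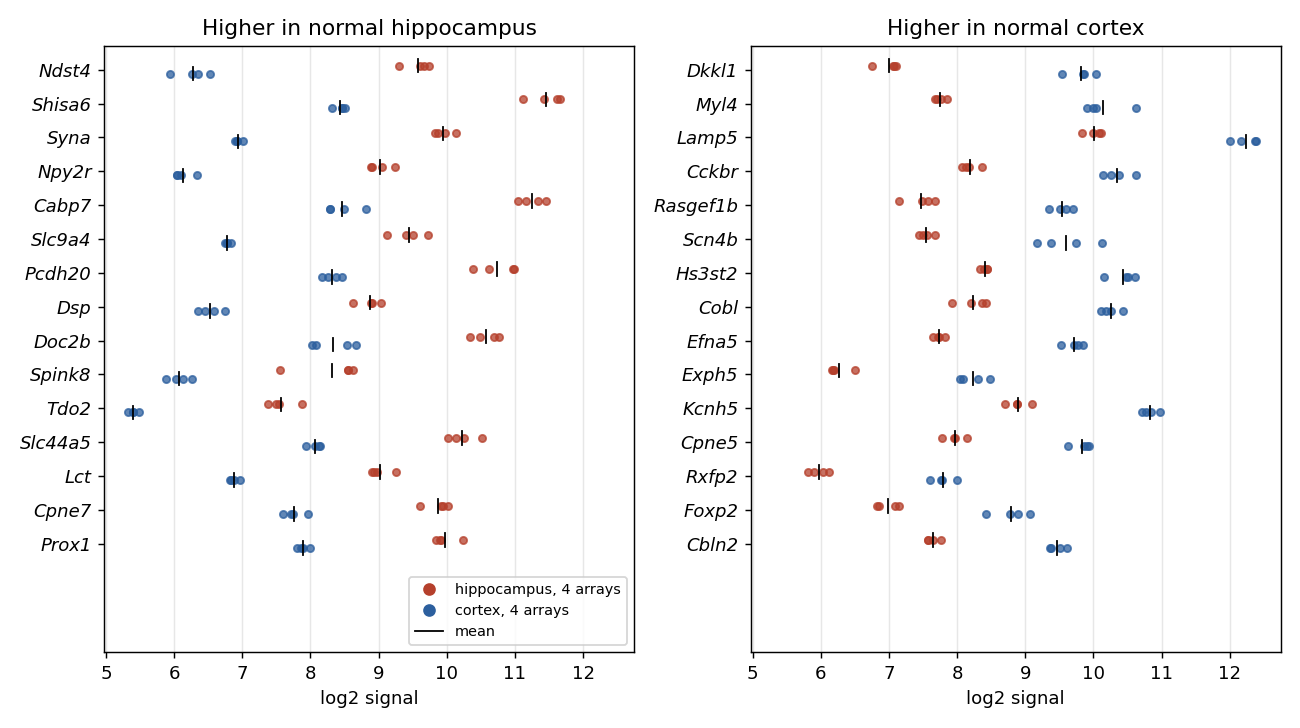
Log2 signal (horizontal axis) of the 15 genes with the largest difference in each direction (rows), 1 point per array; red, 4 hippocampus arrays; blue, 4 cortex arrays; black ticks, group means. Red and blue points do not overlap within a row because the rule that chose the genes asked for this; Spink8 is lower in hippocampus 2 (7.55) than in the other hippocampus arrays (8.55 to 8.63).

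Markers of the principal cells of the hippocampus were largely on the side of their label. Of 12 dentate granule cell genes, 7 were higher in hippocampus, none lower and 5 did not pass (median difference 1.05, against -0.01 for all genes; 4.92% of all genes were called higher). Prox1, the homeobox factor that sets granule cell identity, read 10.24, 9.84, 9.92 and 9.90 in hippocampus and 7.86, 7.99, 7.89 and 7.80 in cortex (2.09 ± 0.09). Dsp, a desmosome protein that granule cells also make, was higher by 2.34, the tryptophan-degrading enzyme Tdo2 by 2.17 and the lactase gene Lct by 2.15. C1ql2, a synapse organizer secreted at mossy fibre terminals, was 3.65-fold higher, and read 9.52 to 9.94 against 7.43 to 8.54. Dock10 (0.99) and Glis3 (1.11) were higher too. Calb1, a calcium buffer of granule cells that cortical neurons also carry, differed by 0.13 ± 0.13 and C1ql3 by 0.08 ± 0.10, and neither passed the test.

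Of 9 CA1 pyramidal cell genes 8 were higher and none lower (median 0.97). Counts of this and the next lists are read against 4.92% of all genes higher and 8.96% lower. Fibcd1, a membrane protein that marks CA1, read 9.37, 9.30, 9.43 and 9.13 in hippocampus and 7.51, 7.28, 7.16 and 7.30 in cortex (3.98-fold; limma adjusted p = 6.25e-09). Spink8, a protease inhibitor, was higher by 2.24 ± 0.19, the orphan receptor Gpr161 by 1.94 and Dcn, the proteoglycan decorin, by 1.61. Dcn also stands in the list of meningeal fibroblast markers, of which 2 of 15 were higher and 2 lower. In that list 5 were lower without cortex 3 and 4 (5.99% of all genes) or without hippocampus 1 and 2 (7.53%). Wfs1, an endoplasmic reticulum protein, was 1.57-fold higher, whereas Mpped1 differed by -0.20 ± 0.11 and did not pass. CA2 genes were higher in 5 of 7, among them Rgs14 (0.83 ± 0.08), a regulator of G-protein signalling that marks CA2, Amigo2 (0.99) and Necab2 (0.89). Sostdc1 (0.99 ± 0.19), which also stands in the choroid plexus list, read 7.91 and 7.86 in hippocampus 1 and 2 and 6.97 and 6.93 in hippocampus 3 and 4, above the 6.29 to 6.56 of cortex in each; without hippocampus 1 and 2 its difference was 0.52 (limma adjusted p = 0.00394). Pcp4, a calmodulin-binding protein that deep cortical layers also express, was lower (log2 difference -0.39), with limma adjusted p = 0.0528 without cortex 3 and 4. CA3 genes were split: Iyd (1.11), Cpne4 (0.98), the kainate receptor subunit Grik4 (0.78) and Trps1 (0.64) were higher, and Coch was lower (log2 difference -1.80 ± 0.11; 7.24 to 7.44 against 8.82 to 9.42). The other 4 of the 9 CA3 genes did not pass. Of 6 mossy cell genes, Calb2 (calretinin, 1.34 ± 0.10) and Calcrl (0.38) were higher. Ajap1 was lower (log2 difference -0.27 ± 0.07; limma adjusted p = 0.0201), a call lost without cortex 1 (adjusted p = 0.0653), without cortex 3 (0.0577) or without hippocampus 4 (0.0605). It was also lost without cortex 3 and 4 (0.139), without hippocampus 1 and 2 (0.0777) and without array 1 of both regions (0.0824), all by limma.

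**Figure D4:**
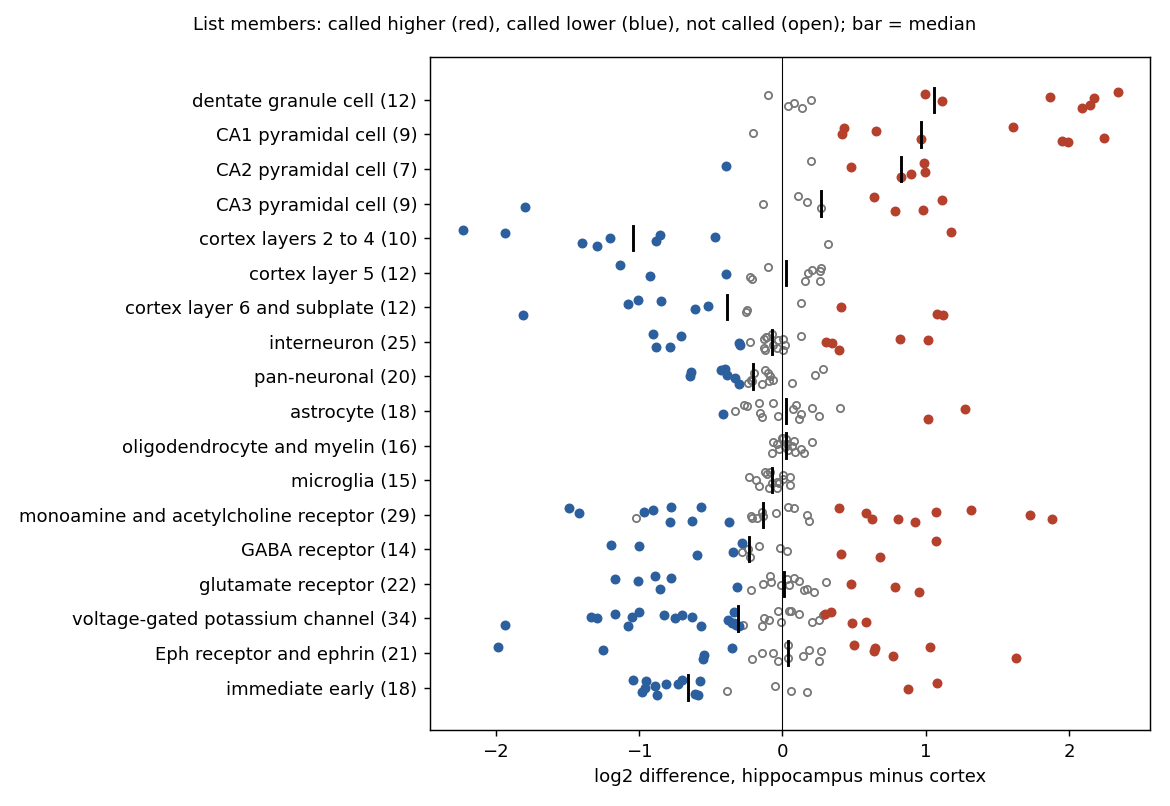
Log2 difference of hippocampus minus cortex (horizontal axis) for every measured member of 18 lists (rows, number of members in brackets); red, called higher; blue, called lower; open, not called; black bars, list medians. Dentate granule cell and CA1 members lie to the right, members of cortex layers 2 to 4 and immediate early genes mostly to the left, and microglia and myelin members near 0.

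Transcription factors that pattern both regions differed in both directions. Zbtb20, a zinc finger repressor needed for hippocampal pyramidal cell fate, read 12.06, 11.34, 11.87 and 11.68 in hippocampus and 10.01, 10.24, 10.21 and 10.13 in cortex (3.01-fold). Lhx9, a LIM homeobox factor, was 4.09-fold higher, at 8.29 to 8.67 against 6.32 to 6.57, and the nuclear receptor Nr2f2 1.89-fold higher. Meis2, a homeobox factor, was lower (log2 difference -1.05 ± 0.09). In all, 4 of 11 hippocampal patterning factors were higher and 3 lower. Of 23 cortical projection neuron factors 10 were lower in hippocampus and 5 higher (8.96% and 4.92% of all genes). Mef2c, which regulates synapse number, read 12.29, 12.15, 11.86 and 11.90 in cortex and 10.52 to 10.61 in hippocampus (-1.46 ± 0.10). Cux2, a factor of upper-layer neurons, was lower (log2 difference -1.29), Tbr1, a factor of layer 6 neurons, at -1.22 and Foxp2 at -1.81. The 5 higher members were the basic helix-loop-helix factors Neurod1 (0.85 ± 0.12) and Neurod6 (0.83 ± 0.12), Bcl11b (0.80 ± 0.11), Nr4a2 (1.08 ± 0.16) and Zfpm2 (0.37). Bcl11b marks deep-layer cortical neurons but is also made by hippocampal neurons, and Neurod1 also acts in newborn granule cells.

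Cortical layer markers did not all behave alike. Of 10 genes of layers 2 to 4, 8 were lower in hippocampus and 1 higher (median -1.04, against 8.96% of all genes called lower): beside Lamp5, Kcnh5 and Cux2, Stard8 was lower (log2 difference -1.40), the Wnt agonist Rspo1 at -1.20, the Ras exchange factor Rasgrf2 at -0.88 and the nuclear receptor Rorb at -0.85. Mdga1, an adhesion molecule, was the member that was higher (1.18 ± 0.12; 8.88 to 9.47 against 7.86 to 8.09). Of 12 layer 5 genes 3 were lower and none higher, with a median of 0.03 (2 were higher without cortex 2). Those lower were the retinol carrier Rbp4 (-1.13), Deptor (-0.92), an inhibitor of mTOR, and Pcp4 as given above. In layer 6 and subplate, 6 of 12 were lower, among them Foxp2, Ccn2, Syt6 (-1.01) and Cplx3 (-0.85), and 3 higher, among them Crym (1.12 ± 0.12), a thyroid hormone-binding protein, and Nr4a2. Ccn2 (-1.08 ± 0.21), a matricellular protein of subplate neurons, read 8.25 in hippocampus 1 and 9.17 to 9.65 in hippocampus 2 to 4, against a mean of 10.15 ± 0.13 (SD, n = 4) in cortex; without hippocampus 1 and 2 its difference was -0.72 (limma adjusted p = 0.00463).

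Short promoter windows were compared for a letter motif of the basic helix-loop-helix factors, since Neurod1 and Neurod6 differed between the regions. Of the 19936 genes, 15614 had at least 1 window of 250 bases before a listed start in the RefSeq promoter table of GRCm38.p6. CAGATG (either strand, so also CATCTG) was present in a window of 13.8% of these genes. It was present for 15 of 79 genes (19.0%) that were at least 2-fold higher in hippocampus and for 16 of 117 (13.7%) at least 2-fold lower. Among all genes called, it was present for 118 of 758 higher (15.6%) and 178 of 1377 lower (12.9%). The windows of Prox1, high in hippocampus, and Kcnh5, high in cortex, are shown because each holds the motif once, on opposite sides of the comparison; capitals mark it, and both are written 5′ to 3′ on the gene's strand.
Prox1 (chr1:190170828-190171077, minus strand): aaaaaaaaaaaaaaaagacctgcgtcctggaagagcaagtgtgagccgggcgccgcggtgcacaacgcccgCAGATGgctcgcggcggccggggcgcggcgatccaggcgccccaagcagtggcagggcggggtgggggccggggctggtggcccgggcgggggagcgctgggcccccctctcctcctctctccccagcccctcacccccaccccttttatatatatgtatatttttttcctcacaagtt
Kcnh5 (chr12:75177333-75177582, minus strand): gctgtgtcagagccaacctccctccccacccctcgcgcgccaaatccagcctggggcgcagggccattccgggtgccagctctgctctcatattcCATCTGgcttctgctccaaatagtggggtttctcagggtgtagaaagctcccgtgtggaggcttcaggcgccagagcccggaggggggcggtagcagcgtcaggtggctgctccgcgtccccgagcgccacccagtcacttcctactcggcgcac
A match describes the letters of the window and is not a measured binding site.

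Interneuron genes were mixed, with 6 of 25 lower and 5 higher (8.96% and 4.92% of all genes); 2 were higher without cortex 3 and 4, and 3 without hippocampus 1 and 2. Gad1 and Gad2, the enzymes that make GABA, differed by -0.13 ± 0.08 and 0.01 ± 0.08 and did not pass, nor did the peptide Sst (-0.03 ± 0.10). Pvalb, a calcium buffer of fast-spiking cells, read 9.72, 9.51, 9.62 and 9.57 in hippocampus and 10.79, 10.59, 10.41 and 10.24 in cortex (1.87-fold lower in hippocampus). Vip (-0.88), Crh (-0.78) and Npy (-0.71), peptides of other interneuron classes, were lower as well. Nos1, the neuronal nitric oxide synthase, was 2.02-fold higher at 9.62 to 9.80 against 8.52 to 8.84, and Ndnf, a secreted factor of neurogliaform and Cajal-Retzius cells, was higher by 0.82. Of 20 pan-neuronal genes 7 were lower and none higher (median -0.21); without cortex 1, 4 were lower, and without hippocampus 2, 2 were higher. Without hippocampus 1 and 2 together 3 were lower and 1 higher.

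Receptors for transmitters differed subunit by subunit. Of 22 glutamate receptor genes 3 were higher and 6 lower, against 4.92% and 8.96% of all genes. The AMPA receptor subunit Gria1 read 12.72, 12.25, 12.74 and 12.55 in hippocampus and 11.49 to 11.72 in cortex (0.95 ± 0.11), whereas Gria4, another AMPA subunit, was lower (log2 difference -0.89) and the kainate subunit Grik3 at -1.01. Grm5, a metabotropic receptor, was higher by 0.47, and Grm8 lower (log2 difference -1.17). Of 14 GABA receptor genes 3 were higher and 5 lower, read against the same shares. Gabra5, the alpha subunit of extrasynaptic receptors of hippocampal pyramidal cells, read 12.30, 11.91, 12.26 and 12.12 in hippocampus and 10.97 to 11.17 in cortex (2.1-fold; limma adjusted p = 1.61e-06). Gabra2 was higher by 0.68, while Gabra3 and the delta subunit Gabrd (-1.19 ± 0.09) were lower. Without hippocampus 2, 6 glutamate receptor genes were higher, and without cortex 1, without hippocampus 4 or without cortex 3 and 4, 3 GABA receptor genes were lower.

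Of 29 monoamine and acetylcholine receptor genes 9 were higher and 9 lower, against 4.92% and 8.96% of all genes. Drd5, a dopamine receptor coupled to cyclic AMP synthesis, read 9.68, 9.02, 9.36 and 9.11 in hippocampus and 7.52, 7.13, 7.53 and 7.48 in cortex (3.67-fold). The serotonin receptors Htr4 (1.73 ± 0.12), Htr5b (1.31 ± 0.09) and Htr1a (0.93 ± 0.11) were also higher. Htr2a, the serotonin receptor that is abundant in cortex, read 11.04, 10.31, 10.75 and 10.77 there and 9.24 to 9.44 in hippocampus (2.68-fold lower in hippocampus). Adra1b, an adrenergic receptor, was lower (log2 difference -1.49) and the muscarinic receptor Chrm2 at -0.90. Drd1, lower (log2 difference -0.97; limma adjusted p = 0.025), read 9.80 and 9.21 in cortex 3 and 4 and 8.17 and 8.31 in cortex 1 and 2. Without cortex 3 and 4 its difference was -0.34 (limma adjusted p = 0.097), and its call was also lost without cortex 4 (adjusted p = 0.0767), without hippocampus 1 (0.0663), without hippocampus 2 (0.0663) or without both (0.165).

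Neuropeptide systems differed in both directions (4.92% of all genes were higher and 8.96% lower). Npy was lower in hippocampus, and its receptor Npy2r was higher by 2.89. Of 18 neuropeptide genes 7 were lower, with Adcyap1, which encodes the peptide PACAP, at -1.67 ± 0.10 and the tachykinin Tac2 at -0.97, and 4 were higher, with Nts (neurotensin, 0.94 ± 0.13) and Grp (gastrin-releasing peptide, 0.84 ± 0.13). Penk and Tac1, both lower, stand in the striatal list and were highest in cortex 3 and 4. Penk (enkephalin, -1.31 ± 0.23) read 12.59 and 12.23 there and 11.17 and 11.41 in cortex 1 and 2, above the 10.50 to 10.63 of hippocampus throughout; without cortex 3 and 4 its difference was -0.75 (limma adjusted p = 0.000445). Tac1 (-1.01 ± 0.26, limma adjusted p = 0.017) read 9.33 and 8.91 there and 7.88 in both other cortex arrays. Its difference without those arrays was -0.38 (limma adjusted p = 0.0735), and the call was also lost without cortex 4 (0.0575), without hippocampus 2 (0.0659) or without hippocampus 1 and 2 (0.11). Of 24 neuropeptide and cannabinoid receptor genes 8 were lower, with the somatostatin receptor Sstr2 at -0.99 beside Cckbr, and 4 higher, or 2 without cortex 2, cortex 4, cortex 3 and 4 together or hippocampus 1.

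Of 34 voltage-gated potassium channel genes 18 were lower in hippocampus and 4 higher (median -0.31, against -0.01 for all genes). Over all genes, too, more were lower (8.96%) than higher (4.92%). The largest differences were Kcnh5, Kcnv1 (-1.34 ± 0.12), Kcnab3 (-1.29 ± 0.09) and Kcnh7 (-1.16 ± 0.09), all lower, and the silent subunit Kcng2 (0.58 ± 0.08) was the largest of those higher. The count of 4 higher was 2 without any 1 of cortex 2, 3 or 4 or hippocampus 1 or 3, and 2 without cortex 3 and 4 together. Of 30 voltage-gated calcium, sodium and HCN channel genes 12 were lower and 5 higher, to be read against the same shares of all genes. Scn3b, a sodium channel beta subunit, read 11.71, 10.81, 11.27 and 11.16 in hippocampus and 9.73 to 10.24 in cortex (2.34-fold). Cacng8, an AMPA receptor auxiliary subunit of the same family as calcium channel gamma subunits, was higher by 0.99, and its relative Cacng3 was lower (log2 difference -0.90). Of 33 calcium-binding and calcium-signalling genes 12 were lower and 6 higher (8.96% and 4.92% of all genes), with the kinases Camkk2 at -1.32 and Camk4 at -1.05.

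Wiring molecules held large differences of both signs, and their counts are read against 4.92% of all genes higher and 8.96% lower. Epha6, a receptor for ephrins, read 11.40, 10.87, 11.12 and 11.06 in hippocampus and 9.77, 9.44, 9.36 and 9.35 in cortex (3.1-fold), and Epha7 was higher by 1.03. Efna5, an ephrin ligand that these receptors can bind, was 3.96-fold lower at 7.65 to 7.83 against 9.52 to 9.84, and the receptor Ephb6 2.38-fold lower. In all, 6 of 21 Eph receptor and ephrin genes were higher and 5 lower. Of 41 semaphorin, plexin, neuropilin, Slit, Robo and netrin genes 13 were higher and 10 lower. The guidance ligand Slit1 (1.47 ± 0.11) and the semaphorin co-receptors Nrp1 (1.23 ± 0.10) and Nrp2 (1.21 ± 0.10) were higher. Plxnd1 (-1.43 ± 0.08) and Sema3a (-1.36 ± 0.17) were lower, and Sema3a read 8.17 in hippocampus 3 against 7.05 to 7.41 in the other hippocampus arrays. Of 25 cadherins and non-clustered protocadherins 12 were lower, with Cdh7 at -1.39 and Pcdh7 at -1.27, and 5 higher, with Pcdh19 at 1.03 beside Pcdh20. Among 30 genes of C1q-like, cerebellin and other synaptic organizers 12 were lower, with Lrrtm3 at -1.15 beside Cbln2, and 3 higher, with Lrrtm1 at 0.80 beside C1ql2. Of 38 Wnt pathway genes 10 were lower, with the Wnt-binding inhibitor Sfrp1 at -1.12 ± 0.09 beside Dkkl1 and Rspo1, and 1 higher, the ligand Wnt5a (0.42 ± 0.08). Wnt5a did not pass without cortex 3 and 4 (limma adjusted p = 0.0553).

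Of the corticosteroid receptors, only the mineralocorticoid receptor passed the test. Nr3c2, which encodes it, read 10.86, 10.41, 10.45 and 10.40 in hippocampus and 8.64, 8.64, 8.63 and 8.53 in cortex (3.78-fold; limma adjusted p = 1.74e-08). Nr3c1, the glucocorticoid receptor, differed by -0.27 ± 0.10 (limma adjusted p = 0.0824), and by -0.33 (adjusted p = 0.0345) without hippocampus 1. It also passed when same-numbered arrays were blocked across regions (limma adjusted p = 0.0381). Of 13 genes of this list 3 were higher and 3 lower (4.92% and 8.96% of all genes). Hsd11b1, which regenerates active glucocorticoid, was higher by 0.70, and Fkbp5, a chaperone induced by glucocorticoids, by 0.54. Crhr1, the receptor for corticotropin-releasing hormone, was lower (log2 difference -0.72) and the clock gene Per1 at -0.60.

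Immediate early genes, which neurons switch on within minutes of activity, were mostly lower in hippocampus: 12 of 18 were lower and 2 higher (median -0.66, against 8.96% of all genes called lower). Arc, which acts at active synapses, read 10.44, 10.59, 10.70 and 10.54 in hippocampus and 11.32, 12.02, 11.40 and 11.36 in cortex (1.94-fold lower in hippocampus). The phosphatase Dusp1 was lower (log2 difference -1.05 ± 0.18), the zinc finger factor Egr3 at -0.98 ± 0.09, the pentraxin Nptx2 at -0.95 ± 0.10 and Npas4 at -0.87 ± 0.19. The orphan nuclear receptors of a single family split: Nr4a1 was lower (log2 difference -0.61 ± 0.15), while Nr4a2 read 11.34, 11.27, 11.43 and 11.40 in hippocampus and 9.81, 10.85, 10.36 and 10.10 in cortex, and Nr4a3 was higher by 0.88 ± 0.15. Cortex 2 was the highest cortex array for Arc, Dusp1 (11.87 against 10.87 to 11.24), Nr4a1 and the mean of the list (10.04 against 9.44 to 9.49). Without it 11 members were lower and 2 higher, against 7.23% and 4.11% of all genes. Nr4a1 did not pass without hippocampus 1 and 2 (limma adjusted p = 0.0795) or without array 1 of both regions (0.0548). The call of Fos, lower (log2 difference -0.59; limma adjusted p = 0.0303), was lost without cortex 2 (difference -0.40, adjusted p = 0.0636) and also without cortex 1 (0.071) or hippocampus 1 (0.0789), 3 (0.0675) or 4 (0.0793). It was also lost without hippocampus 1 and 2 (limma adjusted p = 0.0598) or array 1 of both regions (0.164).

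The promoters of this list were set beside its levels, because the motif TGACG, the core of the cyclic AMP response element, is common in such genes. Of the 18 genes 13 had a window in the RefSeq table, and all 13 held TGACG or its complement CGTCA, against 24.1% of all genes with a window. A gene was counted if the window of any of its listed starts held the motif. Bdnf had 7 starts, Egr2 5, Homer1 2 and the others 1. Taken singly, 21.4% of the 19177 windows of all genes held it, so genes with many starts are favoured. The 13 covered genes on both sides of the comparison: 8 called lower, the higher Nr4a2 and Nr4a3, and Junb (-0.39 ± 0.17), Btg2 (-0.05 ± 0.15) and Bdnf (0.17 ± 0.08), which did not pass. The longer TGACGTCA was in windows of 2 of the 13 and of 2.33% of all genes. Windows of 4 genes that were lower and of Nr4a2, which was higher, are shown from GRCm38.p6, 5′ to 3′ on the gene's strand, with the motif in capitals where overlapping matches are merged.
Fos (chr12:85473640-85473889, plus strand): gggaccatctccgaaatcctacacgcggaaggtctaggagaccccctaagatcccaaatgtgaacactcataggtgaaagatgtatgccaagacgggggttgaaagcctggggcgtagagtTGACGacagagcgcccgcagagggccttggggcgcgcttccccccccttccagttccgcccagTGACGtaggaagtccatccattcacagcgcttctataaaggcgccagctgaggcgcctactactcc
Dusp1 (chr17:26508473-26508722, minus strand): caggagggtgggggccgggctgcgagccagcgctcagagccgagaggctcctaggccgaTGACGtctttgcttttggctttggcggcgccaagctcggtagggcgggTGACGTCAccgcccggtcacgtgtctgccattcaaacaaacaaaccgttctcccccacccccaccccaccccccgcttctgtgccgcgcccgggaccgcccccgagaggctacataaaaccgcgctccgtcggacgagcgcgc
Egr4 (chr6:85513590-85513839, minus strand): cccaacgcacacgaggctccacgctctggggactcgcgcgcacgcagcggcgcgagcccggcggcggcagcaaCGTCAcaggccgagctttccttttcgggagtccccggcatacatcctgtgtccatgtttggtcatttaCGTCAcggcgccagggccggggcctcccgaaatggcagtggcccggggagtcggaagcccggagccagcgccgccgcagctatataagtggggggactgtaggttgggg
Homer1 (chr13:93303507-93303756, plus strand): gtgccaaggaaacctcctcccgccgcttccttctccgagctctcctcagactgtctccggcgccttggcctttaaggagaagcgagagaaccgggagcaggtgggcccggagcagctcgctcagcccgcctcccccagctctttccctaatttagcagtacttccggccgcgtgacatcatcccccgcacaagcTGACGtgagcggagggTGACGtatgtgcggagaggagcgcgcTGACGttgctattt
Nr4a2 (chr2:57124004-57124253, minus strand): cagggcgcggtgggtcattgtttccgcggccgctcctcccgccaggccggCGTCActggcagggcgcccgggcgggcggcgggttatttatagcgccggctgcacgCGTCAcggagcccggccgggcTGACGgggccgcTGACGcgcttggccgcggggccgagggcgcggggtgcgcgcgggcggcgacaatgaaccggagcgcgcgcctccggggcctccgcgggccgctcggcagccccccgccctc
Fos, Dusp1 and Egr4 each held 2 such runs, Homer1 3 and Nr4a2 4, so a gene that was higher in hippocampus carried them as well as genes that were lower. Egr4 was lower (log2 difference -0.57 ± 0.12) and Homer1, a scaffold protein of glutamate receptors, at -0.73 ± 0.08.

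Calls among glial and vascular genes are read against 4.92% of all genes higher and 8.96% lower. Lists this short hold few calls at those shares. None of 16 oligodendrocyte and myelin genes, 15 microglia genes or 12 mural cell genes passed by limma, with medians of 0.03, -0.07 and -0.07. Of 13 endothelial genes 1 passed, the cadherin Cdh5 (-0.27), and all 13 differences were below 0 (median -0.18). The mean of that list was 8.16 to 8.27 in hippocampus and 8.40 to 8.47 in cortex, which did not overlap, and 3 members were lower without hippocampus 3, against none without cortex 3 and 4 or without hippocampus 1 and 2 by limma. Of 18 astrocyte genes 2 were higher and 1 lower. Gfap, the intermediate filament of astrocytes, read 10.41, 10.09, 9.96 and 9.95 in hippocampus and 9.02, 9.59, 8.80 and 8.96 in cortex (2.02-fold higher in hippocampus). Agt, the angiotensin precursor made by astrocytes, was higher by 1.27 ± 0.11 and Aldh1l1, a general astrocyte enzyme, lower (log2 difference -0.41 ± 0.10), while the list's median was 0.02. Of 28 oxidative phosphorylation genes 1 was lower and none higher.

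Some markers of neighbouring tissue followed the arrays that stood apart, and others, among them Kl, Prkcd and Ramp3, did not. Of 12 choroid plexus genes 6 were higher in hippocampus and 1 lower, against 4.92% and 8.96% of all genes. Without hippocampus 1 and 2, 3 were higher and none lower, against 4.17% and 7.53% of all genes. The count was also 3 without cortex 1 or without hippocampus 2 alone. Ttr itself, higher by 2.42 ± 0.69 (limma adjusted p = 0.0305), differed by 0.74 (adjusted p = 0.271) without both, and its call was lost without any 1 of hippocampus 1 (0.0978), hippocampus 2 (0.117), cortex 1 (0.0966) or cortex 2 (0.0751). Without array 1 of both regions it was 1.59 (limma adjusted p = 0.247). Kl, the ageing-related gene klotho, read 9.01, 8.66, 8.64 and 8.60 in hippocampus and 6.88 to 7.20 in cortex (3.25-fold). Kcnj13, a channel of choroid plexus epithelium, read 9.64 and 9.16 in hippocampus 1 and 2, 6.87 and 7.17 in hippocampus 3 and 4, and 7.88 to 8.70 in cortex. It differed by -0.15 (limma adjusted p = 0.9), and without hippocampus 1 and 2 it was lower at -1.34 (adjusted p = 0.00139), opposite in sign to Ttr and Kl. Of 10 ependymal genes 6 were higher (4.92% of all genes), with Ak7 at 0.86 and Tmem212 at 0.81. Foxj1, the master factor of ciliated cells, differed by 0.07 ± 0.08. Without hippocampus 1 and 2, 4 were higher (4.17% of all genes), and the count was also 4 without array 1 of both regions. The mean of the ependymal list was 7.22 and 7.2 in hippocampus 1 and 2, 6.95 in hippocampus 3 and 4, and 6.52 to 6.77 in cortex. In the striatal list 5 of 13 genes were lower (8.96% of all genes), and 2 without cortex 3 and 4 (5.99% of all genes). Leaving out single arrays gave 8 without cortex 2, 2 without cortex 4, 3 without hippocampus 1 and 2 without hippocampus 2. Ppp1r1b, the phosphatase inhibitor DARPP-32, read 10.53 and 10.23 in cortex 3 and 4, 9.71 and 9.33 in cortex 1 and 2, and 8.51 to 8.77 in hippocampus; its difference of -1.34 was -0.91 without cortex 3 and 4 (limma adjusted p = 0.000325). Rgs9 (-0.97 ± 0.32) did not pass at limma adjusted p = 0.0587, but did without cortex 1 (-1.25, adjusted p = 0.0141) or cortex 2 (-1.23, 0.0129), and it was -0.17 (adjusted p = 0.472) without cortex 3 and 4. Of 12 thalamus genes 4 were higher, among them Prkcd (1.03 ± 0.09), and 2 lower, among them Ramp3 (-1.21 ± 0.08), against 4.92% and 8.96% of all genes. The lipocalin-type prostaglandin synthase Ptgds, a marker of meninges that glia also make, was lower (log2 difference -0.64).

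The same regions were compared in tumors that followed GFAP-Cre injection, in which no array is shared with the normal comparison. By limma no gene was called (0.0% of 19936; 1603 had an unadjusted p under 0.05) between 7 hippocampus and 4 cortex tumors, and 534 were called with a spread pooled over all 30 arrays. The tumors varied more: the median standard deviation over genes was 0.347 and 0.324 in the tumor groups and 0.128 and 0.099 in normal hippocampus and cortex. The cortex tumors lacked the female pattern, with Xist at 5.31 to 6.11 and Uty at 7.38 to 8.55. In the hippocampus tumors Xist was 5.77 to 11.46 (median 10.74) and Uty 4.78 to 8.83 (median 5.45). Sex and region therefore cannot be fully told apart in this comparison or in the interaction below. Of the 117 genes at least 2-fold higher in normal hippocampus, 27 (23.1%) had a tumor difference above 0 and 90 (76.9%) below 0. Of the 160 at least 2-fold lower, 44 (27.5%) had a tumor difference above 0 and 116 (72.5%) below 0. Over all genes the shares were 50.4% above and 49.6% below, so both sets lay more often below 0, whatever their sign in normal tissue. The medians were -0.28 and -0.19. These shares and medians rest on all 11 tumors, among them GFAP cortex tumor 1 and GFAP hippocampus tumors 5 to 7. Those arrays stand apart from their groups, the shares were not computed without them, and their part in the shares was not tested. Prox1 read 7.01 to 8.15 (median 7.21) in the hippocampus tumors and 6.46 to 8.56 in the cortex tumors, so those groups overlapped, and both lay below the 9.84 to 10.24 of normal hippocampus. Lct read 6.10 to 6.55 in the hippocampus tumors and 6.45 to 7.25 in the cortex tumors, against 8.91 to 9.26 in normal hippocampus. Dkkl1 read 6.73 to 7.89 in the cortex tumors, below the 9.54 to 10.04 of normal cortex.

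The region difference itself was tested for a change between tumors and normal tissue. By limma, the interaction was called in 148 genes (0.742%), 57 with a more positive difference of hippocampus minus cortex in tumors and 91 with a more negative one. Of the 15 genes highest in normal hippocampus 13 were called, with Lct at -2.55 ± 0.21 and Syna at -3.45 ± 0.32, and of the 15 highest in cortex 7. Those 30 genes were chosen on the normal difference, which is part of this contrast, so these counts describe them and support nothing further. The total was 75 to 92 without any 1 of the 8 normal arrays, 88 without GFAP cortex tumor 3, 255 without GFAP hippocampus tumor 5 and 272 without GFAP cortex tumor 1. It was 1930, 1440 more positive and 490 more negative, without the 4 tumor arrays that stand apart from their groups (GFAP cortex tumor 1 and GFAP hippocampus tumors 5 to 7).

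**Figure D5:**
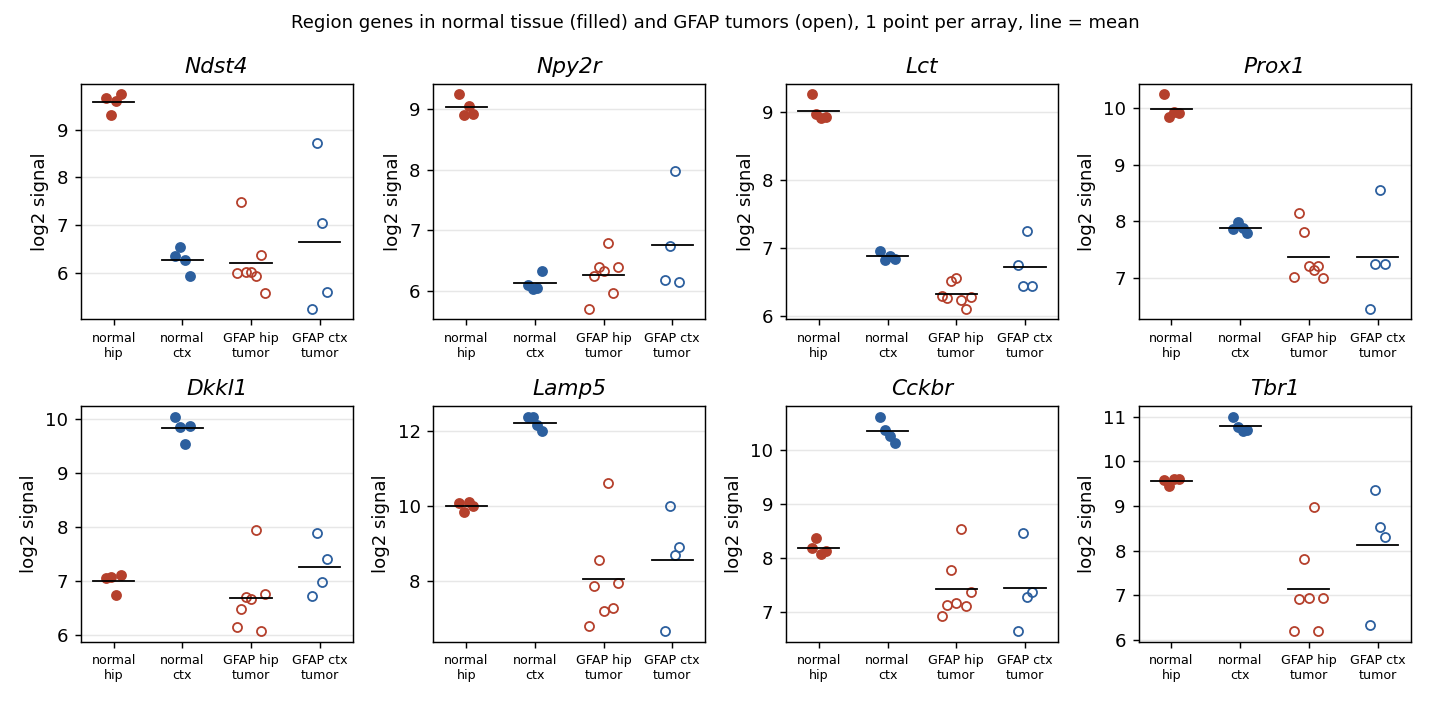
Log2 signal (vertical axis) of 8 genes by group (horizontal axis; 4, 4, 7 and 4 arrays); filled red, normal hippocampus; filled blue, normal cortex; open red and open blue, GFAP tumors of hippocampus and cortex; lines, group means. Normal hippocampus arrays are the highest of the 4 groups for Ndst4, Npy2r, Lct and Prox1 and normal cortex arrays for Dkkl1, Lamp5, Cckbr and Tbr1, while tumor arrays of both sites overlap.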

How the data were processed

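Affymetrix Mouse Gene 1.0 ST arrays were hybridised with total RNA. The authors deposited 1 log2 signal for each probe set and array; Affymetrix Power Tools, MAS5 and RMA are named, without versions or roles, per the submitters' processing notes. Scaling between arrays and the genome build are not given in the sources used here. Of 35556 probe sets 21789 name 1 symbol, 1621 several and 12146 none. A gene took its probe set with the highest mean over 30 arrays, leaving 19936 genes (1001 with several). Differences were tested with limma 3.58.1 in R 4.3.3 (lmFit, eBayes) on the 8 normal arrays, the 11 GFAP tumor arrays, or all 19 with an interaction, with Benjamini-Hochberg adjustment over all genes and a threshold of 0.05. Standard errors are those of the fits. The procedure was tested on simulated data.

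The 47 gene lists, of 790 genes with 738 measured, and the comparison itself were chosen with earlier results of these data known. Named were the 15 largest called differences in each direction without overlap between groups (protein-coding, no provisional symbols), up to 4 largest per direction and list, defining members, and sex-linked genes. Genes of arrays that stand apart were chosen after their values were seen, as were the alternatives without cortex 3 and 4, hippocampus 1 and 2, or array 1 of both regions. Promoter windows are 250 bases before RefSeq starts of GRCm38.p6; 15614 genes matched. Other alternatives are in the closing section.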

Additional observations from a re-analysis of the deposited data

Results flagged for a closer look

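In groups of 4 arrays, 1 array can lie so far from the others that the gap to its nearest neighbour takes a larger share of the group's range than Dixon's critical value for 95% confidence. This was so in 30 of 372 groups looked at (8.06%, 186 genes in both regions), where chance gives about 1 in 20. The genes include sex-linked ones (Xist, Uty, Kdm5d and Eif2s3y) and others picked because they were high in hippocampus 3 (Chrna1 and Anxa2), so the share cannot be read against chance. The gap as a share of the range is given in brackets. Highest in normal cortex array 1 by this measure were Gabra3 (0.832), Plxnd1 (0.884) and Xist (0.918). Lowest in normal cortex array 1 by this measure were Uty (0.971), Kdm5d (0.914) and Eif2s3y (0.981). Highest in normal cortex array 2 by this measure were Hsd11b1 (0.895), Arc (0.892), Junb (0.873) and Cxcr4 (0.844). Lowest in normal cortex array 2 by this measure were Meis2 (0.833) and Drd5 (0.871). Lowest in normal cortex array 4 by this measure were Gpr161 (0.891), Nr3c2 (0.933) and Dcx (0.929). Highest in normal hippocampus array 1 by this measure were Exph5 (0.911), Rorb (0.845), Htr2a (0.939), Nr3c2 (0.883), Kl (0.867) and Penk (0.863). Lowest in normal hippocampus array 1 by this measure were Uty (0.95) and Kdm5d (0.955). Highest in normal hippocampus array 2 by this measure was Fos (0.928). Lowest in normal hippocampus array 2 by this measure were Spink8 (0.925), Tbr1 (0.867) and Per1 (0.847). Highest in normal hippocampus array 3 by this measure were Chrna1 (0.916) and Anxa2 (0.871). Lowest in normal hippocampus array 3 by this measure was Dkkl1 (0.861).

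The ranges behind these shares were small for many genes: they ran from 0.09 log2 for Per1 to 1.08 for Spink8 among the genes that differed between the regions, and the regions did not overlap for Spink8, Dkkl1, Exph5, Nr3c2, Htr2a or Drd5. Ranges of 2.17 to 5.68 were seen for Xist and the Y-linked genes Uty, Kdm5d and Eif2s3y, where array 1 of both regions read unlike the other arrays. Chrna1 and Anxa2, whose differences between the regions did not pass (limma adjusted p = 0.205 and 0.403), were high in hippocampus 3 over ranges of 2.81 and 2.39.

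The test of the difference between contrasts found 148 genes whose region difference in GFAP tumors differed from that in normal brain. Rxfp2, among the 15 genes highest in normal cortex, had an interaction of 1.75 (limma adjusted p = 9.63e-05). It was chosen on its normal difference of -1.82, which is part of this contrast, and its tumor difference was -0.07. The p-value therefore describes that choice and supports nothing further.

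Probe sets that name several symbols or none were kept out of the comparison of genes. Of these 13767 probe sets 135 differed between normal hippocampus and normal cortex by limma (0.981%), 35 higher and 100 lower in hippocampus, and they are not named here.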

How the results depend on the processing

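The count of 2768 genes stayed within 1.5 times under median centring, quantile normalization, a filter on the lowest 30% of genes, averaged probe sets, trended and robust variance, array weights, and without hippocampus 1 and 2 or array 1 of both regions. It was 257 (112 higher, 145 lower) with 1 spread pooled over all 30 arrays, 1761 (620 and 1141) at adjusted p under 0.01, 277 (117 and 160) at 2-fold or more, and 1769 (575 higher) without cortex 3 and 4. Quantile normalization gave 1571 higher. Leaving out each array in turn gave 2261 to 2734 genes, 756 to 1128 higher and 1399 to 1903 lower. For GFAP tumors of hippocampus against cortex, the pooled spread gave 534 genes (446 higher, 88 lower), and leaving out each array gave 0 to 0. The interaction count of 148 became 1930 (1440 and 490) without the 4 tumor arrays that stand apart, 962 (811 and 151) with GFAP hippocampus tumors 1 to 4 only, and 75 to 272 (17 to 141 more positive, 54 to 186 more negative) without each array in turn. The cause of these shifts was not tested.

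Normal arrays share numbers 1 to 4 across regions, and the deviations of same-numbered arrays correlated at 0.237, -0.069, -0.098 and 0.057 in normal tissue and at 0.522, 0.469, 0.183 and 0.05 in tumors. Not every pair exceeded 0.1, so the numbers were not treated as pairs. With the replicate block 2782 genes differed in normal tissue. For tumors the replicate block could take only GFAP hippocampus tumors 1 to 4: by limma 0 genes differed there (1603 at an unadjusted p under 0.05 over all 11 tumors without the block), and the interaction count was 669 (546 more positive), against 962 for the same arrays without the block.

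Of 164 named genes that passed, none changed sign under any alternative that gave a value. The number still called was 164 with centring, 160 with quantile normalization, 155 with trended and robust variance (Sostdc1, Ccn2, Npas4, Rarb, Fos, Ttr, Drd1, Tac1 and Grem1 lost), 163 with array weights, 56 with the pooled spread, 155 without cortex 3 and 4, 157 without hippocampus 1 and 2, and 160 to 163 without each single array. The number of arrays limits precision: in simulated data of this size 78% of genes changed by 0.5 and 99% of those changed by 1 were found. The simulation changed 200 of 19936 genes, and 12 unchanged genes were called. Its noise was independent between genes and held no signal shared by an array, so these shares need not hold for the real data. Dim probe sets have compressed differences where background is left in the signal, and the signal over background is not given by the files used here.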

Other observations

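Among groups not yet described, 3 of 19 neurogenesis and progenitor genes were higher in hippocampus and 1 lower (4.92% and 8.96% of all genes); without cortex 3 and 4 it was 1 each way (2.88% and 5.99%). Dcx, which marks migrating young neurons, read 8.38, 8.24, 8.25 and 8.11 in hippocampus and 9.06, 9.03, 9.05 and 8.61 in cortex (log2 difference -0.69 ± 0.10; limma adjusted p = 0.000292). Hopx, a homeodomain protein of adult neural stem cells, was higher by 0.67 ± 0.13, and by 0.50 without cortex 3 and 4 (limma adjusted p = 0.0651). Of 9 Cajal-Retzius cell genes 5 were higher and none lower, or 2 without cortex 3 and 4 and 3 without hippocampus 1 and 2. Beside Calb2 and Ndnf these included the chemokine receptor Cxcr4 (0.47 ± 0.11), which read 7.35 to 7.41 in hippocampus and 7.31 in cortex 2 against 6.72 to 6.81 in the other cortex arrays. Its call was lost without cortex 3 and 4 (limma adjusted p = 0.167), without hippocampus 1 and 2 (0.0836) and without array 1 of both regions (0.0825).

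Of 16 genes of retinoic acid metabolism and signalling 2 were higher and 3 lower, against 4.92% and 8.96% of all genes. Stra6, a membrane receptor that takes up retinol from its carrier, was higher by 0.84 ± 0.10, while the carrier Rbp4 was lower. The retinoic acid receptor Rarb (-0.87 ± 0.18) read 9.20 and 8.77 in cortex 3 and 4, the arrays with striatal signal, 8.30 and 8.18 in cortex 1 and 2, and 7.46 to 7.95 in hippocampus. Without cortex 3 and 4 its difference was -0.50 (limma adjusted p = 0.0326). Of 18 genes of perineuronal nets and brain matrix 3 were lower and 1 higher, against 8.96% and 4.92% of all genes, with the proteoglycan Spock1 at -0.57 ± 0.09 and the link protein Hapln4 at -0.49 ± 0.08. The matrix protein Sparc was higher by 0.54 ± 0.13 and read 12.54 in hippocampus 3, without which its difference was 0.39 (limma adjusted p = 0.0154). Its call was lost without cortex 3 and 4 (limma adjusted p = 0.0949) or without array 1 of both regions (0.0689). Of 9 medial habenula genes 3 were lower and 1 higher, against 8.96% and 4.92% of all genes. Without cortex 3 and 4 (5.99% of all genes lower) or without hippocampus 1 and 2 (7.53%), 2 were lower. Outside these lists, and chosen after its values were seen, Grem1, a secreted antagonist of bone morphogenetic proteins, read 10.41 in hippocampus 3, 8.45 to 8.94 in the other hippocampus arrays and 7.58 to 8.36 in cortex. It was higher by 1.16 (limma adjusted p = 0.0263), and by 0.72 (adjusted p = 0.00619) without hippocampus 3. Its call was lost without cortex 3 and 4 (0.0539), without array 1 of both regions (0.15), and without cortex 1 (0.0868), cortex 3 (0.0547) or hippocampus 1 (0.0505).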
